A study of Homo sapiens with 12 samples.

Results

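The STAT genes encode the signal transducers and activators of transcription. The 6 described here, STAT2, STAT3, STAT4, STAT5A, STAT5B and STAT6, were taken by gene symbol from a table of 58907 genes. Each symbol matched 1 row, and 5 of the 6 were among the 15252 genes that passed the filter on low counts, STAT4 being the exception. The 12 libraries hold polyadenylated RNA of the reporter line (PPRE)-eGEP-THP-1. THP-1 itself is a line of human leukaemic monocytes. The labels do not expand PPRE and do not say whether the line is 1 clone. In all 4 groups the cells were first turned into macrophages by 48 h of 25 ng/mL phorbol 12-myristate 13-acetate, followed by 24 h of rest. M1 cells then had 24 h of lipopolysaccharide at 100 ng/mL together with recombinant human interferon gamma at 20 ng/mL. M2 cells had 24 h of interleukin 4 and interleukin 13, each at 20 ng/mL. During these 24 h either kind of cell was given 100 µM monocyclohexyl phthalate (MCHP) or its solvent DMSO. The groups, of 3 libraries each, are M1 DMSO, M1 MCHP, M2 DMSO and M2 MCHP.

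STAT proteins wait in the cytoplasm in a latent form. When a cytokine binds its receptor, Janus kinases attached to the receptor phosphorylate a STAT on tyrosine, and the STATs pair up, enter the nucleus and bind DNA. STAT2 works with the DNA-binding factor IRF9 downstream of type I interferons, STAT3 serves the interleukin 6 and interleukin 10 families, and STAT4 serves interleukin 12. STAT5A and STAT5B are close copies that serve GM-CSF among others, and STAT6 is the main STAT of interleukins 4 and 13, which polarize macrophages toward M2. The values below are transcript levels, and phosphorylation of the proteins was not measured.

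Depth was 14352202 to 16871233 counts per library. M2 DMSO replicate 1 stood apart. Its log2 CPM deviated from the mean of its group's other 2 libraries with an SD of 0.445 over genes. In the other 11 libraries this SD was 0.315 to 0.352. Between replicates, the chi-square per degree of freedom was 20.6 and 21.5 in the pairs of M2 DMSO replicate 1. It was 4.67 and 6.94 in the pairs of M2 MCHP replicate 3 and 2.24 to 2.81 in all other pairs. Macrophage markers were checked first. Of 14 markers, 10 reached 1 CPM, led by ITGAX and CEBPB, and their summed level was 3653 to 4398 CPM in M2 DMSO and 4020 to 4228 CPM in the other 3 groups. Single markers did differ by edgeR's test (adjusted p under 0.05). In DMSO 8 of 11 tested were higher in M1 than in M2 and 2 lower, against 21.6% and 20.9% of all genes. On the log2 scale LYZ (2.33), FCGR1A (2.50) and CD14 (3.11) were higher and ITGAM (-1.16) lower. With MCHP in M2, FCGR1A, CSF1R and TYROBP fell and none rose, where 2.18% of all genes fell. CD68 stayed at a group mean of 0.0688 to 0.385 CPM, and MRC1 was at 0 in every group except M2 MCHP, which had 2 counts over 3 libraries.

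The starts of 3 STAT genes that lie on chromosome 17 and of STAT2 are shown because STAT2, STAT3 and STAT5A differed between M1 and M2 cells while STAT5B did not pass the test. STAT6, which differed as well, is not printed. In the 250 bases upstream of its start, the longest stretch outside annotated exons was 41 bases. The sequences are RefSeq's for build GRCh38.p14, read on the strand of the gene and limited to the bases upstream of the RefSeq start that lie outside annotated exons. Capitals mark GGGCGG, the core of the GC box, and TTCNNNNGAA, the spacing that STAT6 prefers, searched on both strands. No marked match overlaps another. STAT2 is at chr12:56360156-56360357 on the minus strand, STAT3 at chr17:42388569-42388692 and STAT5B at chr17:42276407-42276627, also minus, and STAT5A at chr17:42287189-42287438 on the plus strand.
STAT2: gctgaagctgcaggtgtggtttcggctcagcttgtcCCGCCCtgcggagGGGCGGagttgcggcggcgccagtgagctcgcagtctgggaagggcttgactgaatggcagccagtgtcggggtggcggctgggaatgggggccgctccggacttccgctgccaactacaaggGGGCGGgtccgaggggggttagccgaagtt
STAT3: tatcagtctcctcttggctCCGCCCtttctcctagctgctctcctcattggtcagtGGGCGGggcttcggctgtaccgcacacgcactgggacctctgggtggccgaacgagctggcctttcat
STAT5B: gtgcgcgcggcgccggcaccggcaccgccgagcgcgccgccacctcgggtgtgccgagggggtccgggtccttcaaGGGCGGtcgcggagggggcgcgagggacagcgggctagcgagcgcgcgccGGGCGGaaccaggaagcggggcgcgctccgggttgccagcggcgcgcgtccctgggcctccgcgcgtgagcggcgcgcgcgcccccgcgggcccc
STAT5A: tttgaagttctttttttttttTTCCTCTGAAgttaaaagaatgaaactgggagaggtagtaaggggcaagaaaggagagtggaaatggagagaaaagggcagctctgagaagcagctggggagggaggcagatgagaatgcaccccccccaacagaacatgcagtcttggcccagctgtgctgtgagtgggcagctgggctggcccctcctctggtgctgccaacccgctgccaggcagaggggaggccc
In the whole 250 bases upstream, STAT2 held 3 GC box cores, and STAT3, STAT5B and STAT6 held 2 each. Of the 3 windows of STAT5A, the window of another start, not printed here, held 1, at position -181. This core is in 42.6% of 35116 such windows over all RefSeq promoters. None of the 9 windows of the 6 STAT genes held TTCNNNGAA, the common STAT spacing, which is in 6.57% of all windows, or GAAANNGAAA, the core of the interferon-stimulated response element, which is in 3.02%. TTCNNNNGAA was found in 1 window, 229 bases before the first RefSeq start of STAT5A (position -229), against 5.38% of all windows. These are matches of letters only, and no binding was measured.

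The first question was how the STAT genes differ between the 2 polarized states. In DMSO, 4 of the 5 tested STAT genes were higher in M1 than in M2 cells and none was lower by edgeR's quasi-likelihood test with Benjamini-Hochberg adjustment over all genes. In that comparison 42.5% of all genes tested were called, 21.6% as higher and 20.9% as lower in M1. The same 4 were also those whose M1 and M2 libraries did not overlap, which held for 49.5% of all genes. Under MCHP it was again 4 of 5, against 44.6% of all genes called, 21.9% higher and 22.7% lower, and 57% without overlap. STAT2 and STAT3 differed several fold, STAT6 and STAT5A by less than 1 log2 unit, and STAT5B did not pass the test. The p-values measure the spread between libraries that the design text calls biological replicates. In bulk RNA, fewer expressing cells and less RNA per cell cannot be told apart.

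STAT2 showed the widest gap between the states. Its level, in CPM scaled with TMM factors, was 637, 657 and 654 in the M1 DMSO libraries and 625, 662 and 705 in M1 MCHP. In M2 DMSO it was 150, 130 and 127, and in M2 MCHP 108, 117 and 105. Every M1 library was above every M2 library, and the lowest M1 value was more than 4 times the highest M2 value. The log2 fold change, M1 minus M2, was 2.26 ± 0.07 (SE) in DMSO, a 4.79-fold difference (adjusted p = 5.9e-15), and 2.59 ± 0.07 under MCHP, 6.02-fold (adjusted p = 9.3e-16). In DMSO its change was larger than that of 96.8% of the genes tested, and by p it ranked 90 of 15252.

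STAT3, which carries interleukin 6 and interleukin 10 signals, had the next widest gap. Its level was 286, 277 and 282 CPM in M1 DMSO and 289, 294 and 276 CPM in M1 MCHP. It was 85.4, 99.4 and 89.2 CPM in M2 DMSO and 91.3, 92.1 and 101 CPM in M2 MCHP. The states did not overlap, while within each state the MCHP and DMSO libraries did. The log2 fold change was 1.62 ± 0.07 in DMSO (3.08-fold, adjusted p = 2.8e-13) and 1.60 ± 0.07 under MCHP (3.02-fold, adjusted p = 3.5e-13).

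STAT6, the STAT of the cytokines used to make the M2 cells, was lower in those cells than in M1 cells. It was at 204, 210 and 207 CPM in M1 DMSO and 187, 206 and 207 CPM in M1 MCHP, against 143, 152 and 148 CPM in M2 DMSO and 125, 122 and 128 CPM in M2 MCHP. All 6 M1 libraries were above all 6 M2 libraries. The log2 fold change was 0.49 ± 0.06 in DMSO (1.40-fold, adjusted p = 1.1e-06) and 0.68 ± 0.06 under MCHP (1.60-fold, adjusted p = 1.5e-08).

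The close copies STAT5A and STAT5B differed in their pattern. STAT5A was at 52.7, 49.7 and 53.8 CPM in M1 DMSO and 49.7, 52.3 and 49.4 CPM in M1 MCHP. In M2 DMSO it was at 33.6, 39.0 and 42.4 CPM, and in M2 MCHP at 35.4, 35.5 and 32.3 CPM. The 2 states did not overlap, although M2 DMSO spread over more than 8 CPM, with replicate 1 the lowest. Its log2 fold change was 0.44 ± 0.08 in DMSO (adjusted p = 0.00025) and 0.55 ± 0.08 under MCHP (adjusted p = 2.4e-05). STAT5B was at 55.0, 50.9 and 50.6 CPM in M1 DMSO, 49.8, 53.1 and 53.9 CPM in M1 MCHP, 57.0, 57.0 and 53.5 CPM in M2 DMSO and 50.04, 51.7 and 53.9 CPM in M2 MCHP. All 4 groups of STAT5B overlapped. Its log2 fold change was -0.10, with a 95% interval of -0.24 to 0.04, in DMSO (adjusted p = 0.26) and 0.01, with an interval of -0.13 to 0.15, under MCHP (adjusted p = 0.91). With library size as the only scaling STAT5B was called lower in M1 DMSO (-0.23, adjusted p = 0.011), a scaling that moved the median of all genes in that comparison to -0.13.

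Of the counts of STAT5A and STAT5B together, STAT5A took 49.95% ± 1.38 (SD, n = 3) in M1 DMSO and 49.1% ± 1.14 in M1 MCHP. It took 40.6% ± 3.53 in M2 DMSO and 39.9% ± 2.12 in M2 MCHP. The range was 47.8% to 51.5% over the M1 libraries and 37.1% to 44.2% over the M2 libraries, with no overlap. The most shallow library for this share, M2 MCHP replicate 3, held 472 and 787 counts, and its 37.5% has an exact Clopper-Pearson 95% interval of 34.8% to 40.2%, which covers counting error only. Of the 50-base stretches in the annotated transcripts, 8.61% of those of STAT5A were also in STAT5B and 7.81% the other way round, so a small part of the reads may have been split between the pair. No other pair of the 6 genes shared any.

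STAT4, which natural killer and T cells use for interleukin 12, was close to absent and is given as raw counts. It had 4, 1 and 5 counts in M1 DMSO and 5, 1 and 1 in M1 MCHP. It had 1, 0 and 0 in M2 DMSO and 0, 0 and 1 in M2 MCHP. The 6 M1 libraries held 17 counts and the 6 M2 libraries 2, a depth-scaled ratio of 9.28 with an exact 95% counting interval of 2.20 to 82.8, which covers counting error only. With 7 counts under MCHP and 10 in DMSO among M1 cells, a ratio of 0.693 with an interval of 0.224 to 2.02, a change with MCHP was not detectable at this depth.

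**Figure D1:**
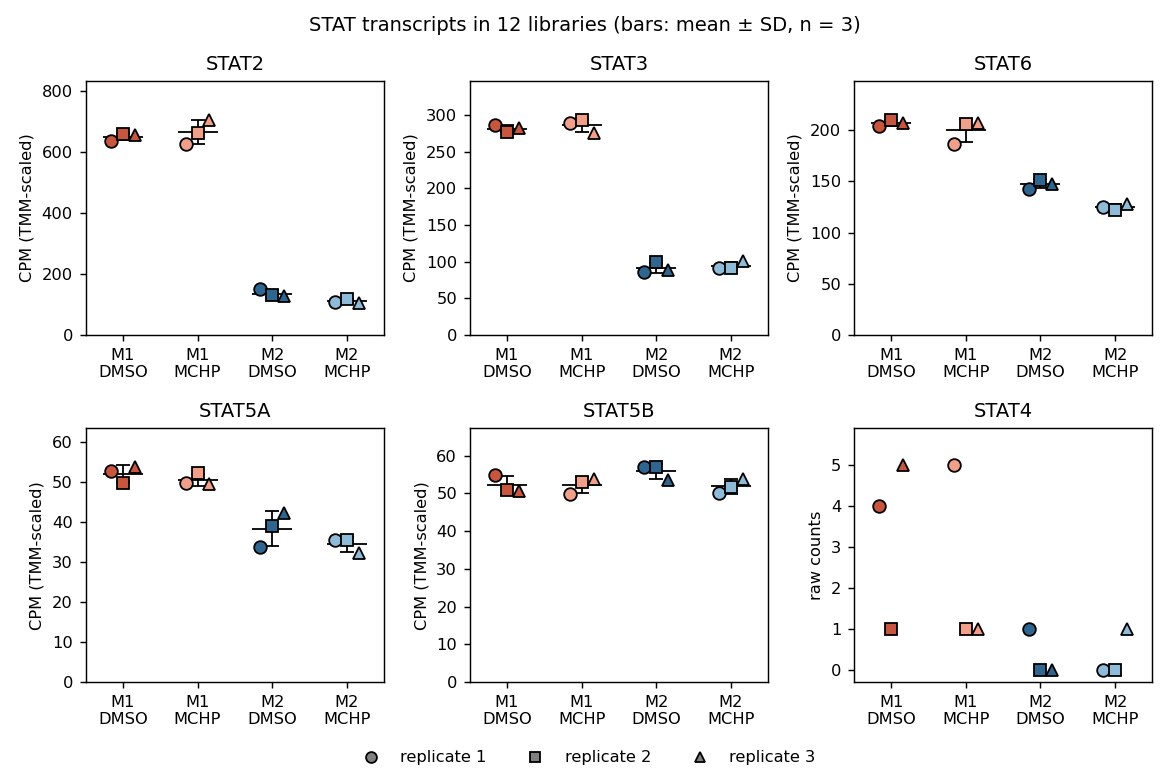
STAT transcript levels in the 12 libraries: each panel is 1 gene, the x axis gives the 4 groups, and the y axis the TMM-scaled CPM or, for STAT4, raw counts. Points are libraries, and bars are the mean and SD of 3 libraries. STAT2 sits at 625 to 705 CPM in M1 and 105 to 150 CPM in M2, while STAT5B sits at 49.8 to 57.0 CPM in all 4 groups.

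Levels of different genes were compared per length, as TMM-scaled counts per kilobase of gene model, on the library scale used for CPM. In M1 DMSO the order of the mean levels was STAT2 at 106, STAT3 at 32.0, STAT6 at 28.4, STAT5A at 9.04, STAT5B at 8.09 and STAT4 at 0.0468. No neighbours in that order overlapped, and M1 MCHP had the same order. In M2 DMSO the order was STAT2 at 22.2, STAT6 at 20.2, STAT3 at 10.4, STAT5B at 8.66, STAT5A at 6.66 and STAT4 at 0.00439. STAT6 and STAT3 changed places, as did STAT5A and STAT5B. The place of STAT5A above STAT5B in M1 rests on the gene lengths, 5754 and 6447 bases. Their raw counts over 3 libraries were 2319 each in M1 DMSO. In M1 MCHP they were 2268 for STAT5A and 2348 for STAT5B. M2 MCHP had that order too, but there STAT2 (18.05) and STAT6 (17.1) overlapped. The summed per-length level of the 6 genes was 177 to 192 in the M1 libraries and 59.1 to 69.0 in the M2 libraries. STAT2 made up 57.2% to 60.1% of that sum in M1 and 28.6% to 35.8% in M2. STAT6 made up 14.5% to 15.6% in M1 and 27.7% to 30.3% in M2, although its level was the lower there.

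**Figure D2:**
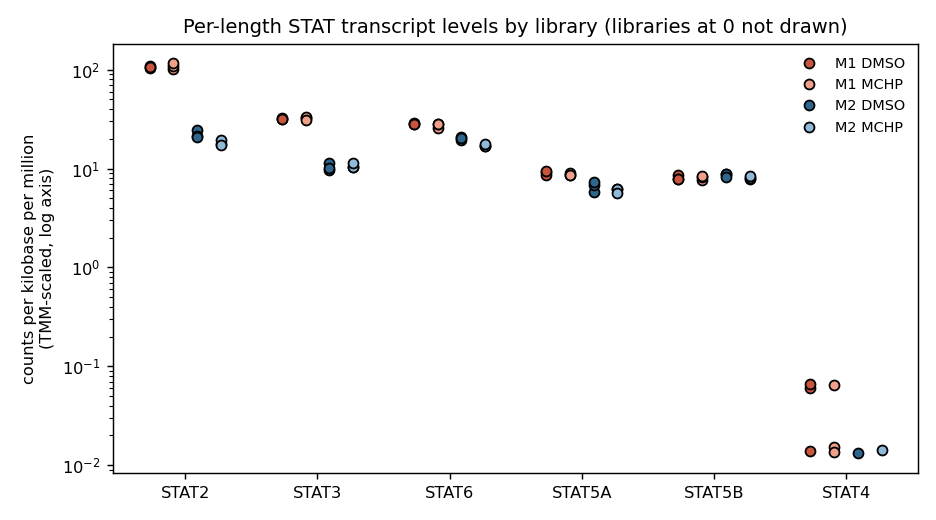
Per-length levels of the 6 STAT genes by library: the y axis is TMM-scaled CPM per kilobase on a log axis, colours give the group, and libraries at 0 are not drawn. STAT2 is highest in every group on average, and STAT4 lies more than 100-fold below the others.

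The second question was what MCHP did within each state. These comparisons use the same DMSO libraries as the comparison of the states, so the values are not independent of it. In M1 cells none of the 5 tested STAT genes was called by edgeR's quasi-likelihood test, and none had an unadjusted p under 0.05. Here 0.0852% of all genes were called, 0.0721% as higher and 0.0131% as lower, while 15.9% had groups that did not overlap. The log2 changes, MCHP minus DMSO, were 0.03 for STAT2 (95% interval -0.11 to 0.17), 0.02 for STAT3 (-0.11 to 0.15), 0.00 for STAT5B (-0.14 to 0.15), -0.04 for STAT5A (-0.22 to 0.13) and -0.05 for STAT6 (-0.17 to 0.07). DESeq2 and limma-voom called none either.

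In M2 cells STAT2 and STAT6 fell, 2 of the 5 tested, where 5.11% of all genes were called, 2.18% as lower and 2.92% as higher. They were also the 2 whose groups did not overlap, as was so for 20.8% of all genes. The mean of STAT2 was 136 ± 12.1 CPM in DMSO and 110 ± 6.46 CPM under MCHP (SD, n = 3), with a log2 change of -0.30 ± 0.07 (SE; adjusted p = 0.016, edgeR's quasi-likelihood test). The highest MCHP library, at 117 CPM, was below the lowest DMSO library, at 127 CPM. STAT6 went from 148 ± 4.40 to 125 ± 2.80 CPM, a log2 change of -0.24 ± 0.06 (adjusted p = 0.021), with 128 CPM the highest under MCHP and 143 CPM the lowest in DMSO. STAT5A was at -0.16 ± 0.08 (adjusted p = 0.34), STAT5B at -0.11 ± 0.07 (adjusted p = 0.42) and STAT3 at 0.05 ± 0.07 (adjusted p = 0.74), and in each of these the groups overlapped.

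Both calls in M2 were near the threshold. The call of STAT2 was lost on leaving out M2 MCHP replicate 1 (adjusted p = 0.082) or replicate 3 (0.085), and that of STAT6 on leaving out M2 MCHP replicate 1 (0.088), M2 MCHP replicate 2 (0.072) or M2 DMSO replicate 2 (0.072). With only the 6 M2 libraries in the fit neither was called (0.14 and 0.15). M2 DMSO replicate 1, the library that stood apart, was the highest for STAT2 and the lowest for STAT5A in its group. Without it STAT2 was at -0.22 (adjusted p = 0.0070) and STAT6 at -0.26 (adjusted p = 0.00078), and STAT5A was then called too, at -0.24 (adjusted p = 0.028).

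The difference of the responses asked whether MCHP acted unlike in the 2 states. No STAT gene was called, where 0.164% of all genes were, 0.059% in the higher and 0.105% in the lower direction. M1 minus M2, the difference was 0.33 ± 0.10 for STAT2 (unadjusted p = 0.0029, adjusted p = 0.26, edgeR) and 0.19 ± 0.08 for STAT6 (unadjusted p = 0.031, adjusted p = 0.51). It was 0.11 for STAT5A and for STAT5B and -0.03 for STAT3. DESeq2 and limma-voom called no STAT gene in the difference either. The 95% interval of STAT2, which is not adjusted for the number of genes, was 0.13 to 0.53. With an adjusted p of 0.26, the fall of STAT2 is not shown to be particular to M2. Without M2 DMSO replicate 1 the difference for STAT2 was smaller, 0.25, but was called (adjusted p = 0.047).

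**Figure D3:**
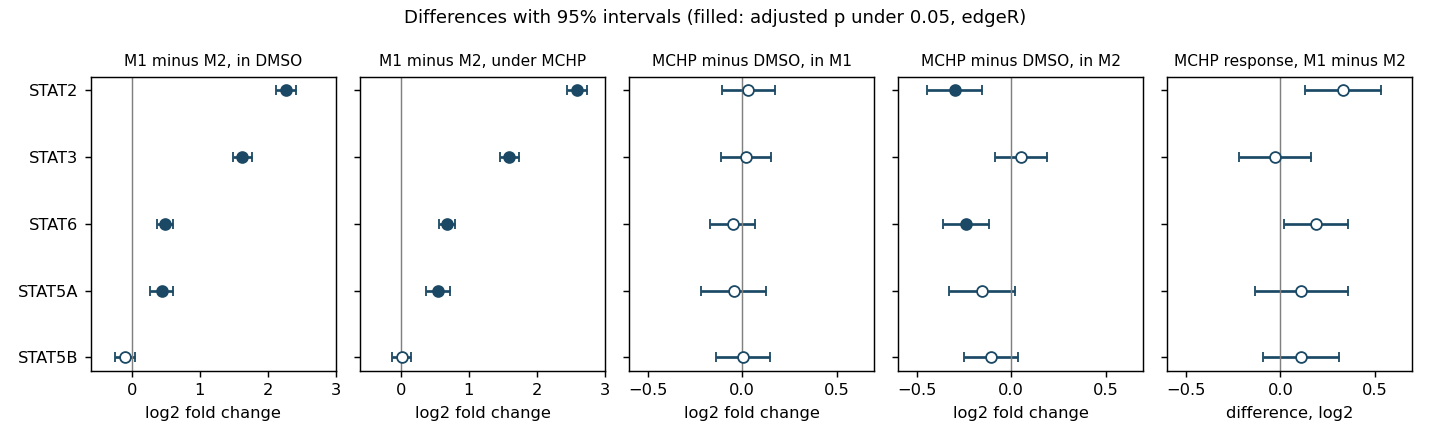
Log2 differences of the 5 tested STAT genes in the 5 comparisons, with 95% intervals; filled points have an adjusted p under 0.05. The first pair of panels (M1 minus M2) and the other 3 (MCHP responses and their difference) have different x axes. STAT2 and STAT6 are filled in M2 and open in M1 and in the difference.

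**Figure D4:**
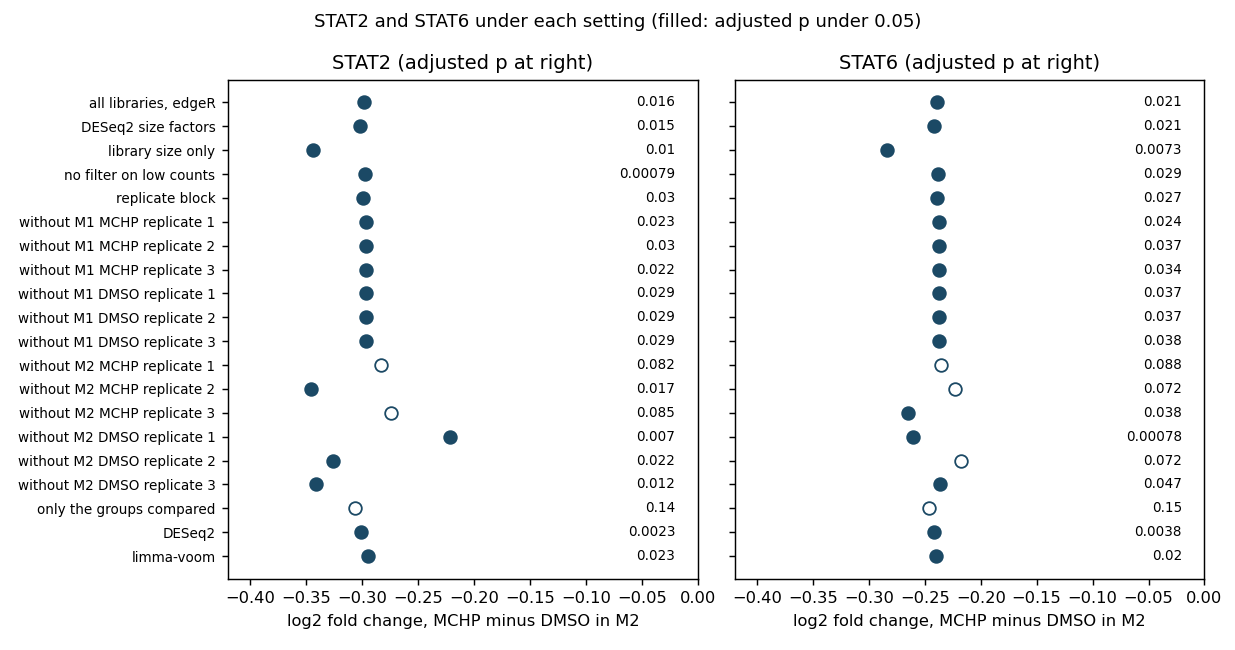
The M2 response of STAT2 and STAT6 under the main analysis and 19 alternatives: the x axis is the log2 change, MCHP minus DMSO, filled points have an adjusted p under 0.05, and the adjusted p stands at the right of each row. STAT2 ranged from -0.35 to -0.22 and was called in 16 of the 19 alternatives, and STAT6 ranged from -0.28 to -0.22 and was called in 15.

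The kinases and receptors that switch STATs on were described next. Of the 4 Janus kinase genes, JAK3 had 2 counts in M1 DMSO, 3 in M1 MCHP and 0 in the M2 groups and was not tested. JAK2, which serves the interferon gamma receptor, was at 178 ± 5.02 CPM in M1 DMSO and 71.5 ± 5.39 CPM in M2 DMSO (log2 fold change 1.32, adjusted p = 4.3e-12, edgeR). JAK1 was at -0.02 and TYK2 at -0.09 in that comparison, neither called. Under MCHP JAK2 was again higher in M1, by 1.45, and JAK1 was higher by 0.20 (adjusted p = 0.0092, but 0.15 with library size alone). MCHP changed none of the 3 tested kinases by this test in either state. Without M2 DMSO replicate 1, TYK2 was called lower under MCHP in M2 (-0.24, adjusted p = 0.00085), and lower in M1 than in M2 in DMSO (-0.19, adjusted p = 0.0015).

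Of 19 tested receptor genes, 9 were higher and 4 lower in M1 than in M2 in DMSO, with a median of 0.35 against -0.00 over all genes. Of all genes, 21.6% were called higher and 20.9% lower. IL15RA, the interleukin 15 receptor alpha chain, was at 27.1 CPM in M1 DMSO and 0.537 CPM in M2 DMSO (5.64 on the log2 scale). CSF2RB, the shared beta chain of the GM-CSF receptor, was higher by 1.49. Both chains that carry interleukins 4 and 13 to STAT6 were higher in M1: IL13RA1 by 0.69 (adjusted p = 6.5e-09) and IL4R by 0.29 (adjusted p = 0.0024, but 0.051 with library size alone). The other chain of that system, IL2RG, had 3 to 9 counts a group. Of the interferon receptors, IFNGR1 was lower in M1 (-0.29, adjusted p = 0.0066) and IFNAR2 higher (0.67, adjusted p = 0.0092), while IFNGR2 (-0.15) and IFNAR1 (-0.05) were not called. IL10RA, which binds interleukin 10 upstream of STAT3, was lower in M1 (a log2 fold change of -0.64), IL6ST, the shared interleukin 6 chain, was higher by 0.42, and IL10RB was not called (0.57, adjusted p = 0.14). Under MCHP 8 receptors were higher and 5 lower, where 21.9% of all genes were called higher and 22.7% lower. With library size alone the receptors split into 8 higher and 6 lower in DMSO.

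In M2 cells MCHP changed 5 of the 19 receptors, 2 higher and 3 lower. Of all genes 5.11% were called there, 2.92% as higher and 2.18% as lower. IL10RA went from 326 ± 24.0 to 234 ± 4.69 CPM (-0.48 ± 0.06, adjusted p = 9.3e-05) and IFNGR1 from 97.2 ± 10.9 to 75.6 ± 6.07 CPM (-0.36, adjusted p = 0.012). CSF2RB fell too (-0.35, adjusted p = 0.019). IL6R, the interleukin 6 receptor, rose by 0.44 and IL7R, the interleukin 7 receptor, by 1.06, the latter from 3.96 to 8.22 CPM. In M1 cells, where 0.0852% of all genes were called, IL10RA was the 1 receptor called. It fell from 210 ± 3.89 to 168 ± 5.29 CPM (-0.32, adjusted p = 0.048), a call that was lost in 11 of 19 alternatives. With the 6 libraries of a state alone, 3 of 18 receptors were called in M1, 1 higher and 2 lower. In M2 it was 3 of 18, 2 higher and 1 lower. Over all genes these fits called 295 in M1 and 183 in M2. IL4R (0.06) and IL13RA1 (-0.01) were not called in M2.

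Inhibitors of the pathway split between the states. Of 20 tested, 10 were higher and 3 lower in M1 than in M2 in DMSO (9 and 6 with library size alone), and 9 and 5 under MCHP. Over all genes the shares were 21.6% higher and 20.9% lower in DMSO, and 21.9% and 22.7% under MCHP. SOCS3, which blocks receptors of the interleukin 6 family, was at 188 CPM in M1 DMSO and 18.8 CPM in M2 DMSO (3.32 on the log2 scale, adjusted p = 2.8e-17), with 196 and 20.1 CPM under MCHP. CISH, an inhibitor induced by STAT5, went the other way, with 6.71 CPM in M1 DMSO and 81.8 CPM in M2 DMSO (-3.61, adjusted p = 5.1e-15). USP18, which damps type I interferon receptors, was higher in M1 by 2.17 and the phosphatase gene PTPN6 by 0.95. SOCS2 (1.32, adjusted p = 0.021) and SOCS1 (0.34, adjusted p = 0.031) were higher in M1 in DMSO and not called under MCHP. The call of SOCS2 was lost in 4 of 18 alternatives and that of SOCS1 in 7 of 19, among them the fit without M2 DMSO replicate 1. With MCHP, CISH in M2, where 5.11% of all genes were called, was the 1 inhibitor called. CISH went from 81.8 ± 8.37 to 64.4 ± 3.99 CPM (-0.34, adjusted p = 0.029). With only the M2 libraries in the fit it was not called (adjusted p = 0.12).

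Of 10 partners and coactivators, 8 were higher in M1 in DMSO and none lower, with a median of 0.28. With library size alone 4 were higher. Of all genes, 21.6% were called higher and 20.9% lower in the main fit. NMI, which binds several STATs, was higher by 0.99 and the coactivator NCOA1 by 0.65. IRF9, the partner of STAT2, was at 5.93 ± 0.309 CPM in M1 DMSO and 5.19 ± 1.62 CPM in M2 DMSO (0.20, adjusted p = 0.47). Between M1 and M2 under MCHP, IRF9 was higher in M1 by 1.203 (adjusted p = 0.00018, edgeR), a call that held in all 19 alternatives. Of the 10 genes of this list, 8 were higher in M1 under MCHP and none lower, or 7 and 1 with library size alone. Of all genes, 21.9% were called higher and 22.7% lower in that comparison. In M2 MCHP IRF9 was at 2.85 ± 0.764 CPM, a log2 change from M2 DMSO of -0.84 ± 0.22 (adjusted p = 0.033). Without M2 DMSO replicate 1 that difference was -0.56 and was not called (adjusted p = 0.085), nor was it called without M2 MCHP replicate 1 or 3 or with the M2 libraries alone. NCOA1 rose in M2 with MCHP (0.29, adjusted p = 0.022).

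Genes known as targets of each STAT were taken as lists from general knowledge. The lists were chosen with earlier results of these data known, and several genes are targets of other factors as well. All 23 tested targets of the complex of STAT2 and IRF9 were higher in M1 than in M2, in DMSO (median 2.65) and under MCHP (median 2.78). Of all genes, 21.6% were called higher and 20.9% lower in DMSO, and 21.9% higher under MCHP. With the M2 libraries alone 20 of these targets passed the filter on low counts, and with the M1 libraries alone 23. Targets that passed only through M1 had their direction set by the filter. RSAD2, which blocks viral replication, was higher by 5.78 in DMSO, OASL by 3.96, IFI44L by 6.41 and IFIT2, which binds viral RNA, by 2.94. Of 18 targets of STAT3, 14 were higher in M1 and 3 lower (median 0.94), led by SOCS3, by TNFAIP3, an inhibitor of NF-kB (1.80), by the adhesion gene ICAM1 (1.58) and by the survival gene MCL1 (1.07). Of 9 tested targets of STAT5, 6 were higher and CISH lower, with BCL6 at 0.95, PIM1 at 1.05 and PIM2 at 1.81.

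Targets of STAT6 leaned the other way from STAT6 itself. Of 14 tested, 9 were lower and 2 higher in M1 than in M2 in DMSO (median -1.59), and 10 and 2 under MCHP (median -1.49). Of all genes, 20.9% were called lower and 21.6% higher in DMSO. The list held 24 genes, of which 14 passed the filter on low counts, and 12 with the M1 libraries alone. Those that passed only through M2 had their direction favoured by the filter. CCL22, a chemokine of M2 cells, was at 12.3 CPM in M1 DMSO and 742 CPM in M2 DMSO (-5.92, adjusted p = 7.2e-18). TGM2, a transglutaminase used as an M2 marker, had a log2 fold change of -2.15, with 2115 CPM in M1 DMSO and 9391 CPM in M2 DMSO. The lectin gene CLEC10A was an exception, higher in M1 by 3.96 (22.3 against 1.43 CPM). Of 8 tested genes of STAT4 signalling, 5 were higher and 1 lower, among them the cytokine subunit EBI3 (2.12), IL12RB1 (3.42) and, lower, IL18R1 (-1.34). Markers of other cell types stood as follows beside these differences. The summed stromal and epithelial markers were 120 to 140 CPM in M1 and 27.3 to 35.3 CPM in M2 libraries, nearly all COL1A1, with COL3A1, DCN and EPCAM at 0 in all 12. Summed T and NK cell markers were 20.6 to 27.7 CPM in M1 and 26.6 to 47.6 CPM in M2, mostly TRAC, and 7 of the 11 were under 1 CPM. GNLY, a granule protein of that list, went the other way and was higher in M1 (2.17 in DMSO, adjusted p = 0.00075, and 1.93 under MCHP). Summed B cell markers were 31.5 to 36.6 CPM in M1 and 37.6 to 53.1 CPM in M2, mostly FCRLA, with MS4A1 and BLK at 0. Of the 7, 6 were under 1 CPM. PAX5 of that list went against the sum and was called higher in M1 (2.06 in DMSO and 3.54 under MCHP). Summed granulocyte markers were 39.1 to 41.6 CPM in M1 and 28.3 to 31.6 CPM in M2, led by CSF3R, with CEACAM8 at 0. MPO, the next in level, went against that sum and was called lower in M1 (-0.55 in DMSO and -0.98 under MCHP). Its call in DMSO was lost in 6 of 19 alternatives. The part of these markers in the differences between the states was not tested.

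In M2 cells, where MCHP changed 5.11% of all genes, it changed 2 of 23 STAT2 targets, 4 of 18 STAT3 targets, 2 of 9 STAT5 targets, 6 of 14 STAT6 targets and 2 of 8 STAT4 signalling genes. Of the 23 STAT2 targets, 2 fell and none rose: IFIT2 from 19.1 ± 1.82 to 12.5 ± 2.14 CPM (-0.61 ± 0.10, adjusted p = 0.0015) and XAF1, which promotes apoptosis, from 25.7 ± 6.32 to 18.4 ± 0.754 CPM (-0.48, adjusted p = 0.029). The list median was -0.17. Without M2 DMSO replicate 1 the median was 0.04, with 3 targets higher and 3 lower, and with the M2 libraries alone none was called. Of the STAT3 targets 2 rose, FOSL2 (0.44) and MCL1 (0.18), and 2 fell, VEGFA (-0.24) and BCL6 (-0.21). The counts depended on the setting: without M2 DMSO replicate 1 it was 2 and 6, and with library size alone 1 and 5. Of the STAT5 targets CISH and BCL6 fell, and without M2 DMSO replicate 1 4 of 10 did. Over all genes the fit without that library called 1747, against 779 in the full fit.

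Of the STAT6 targets 2 rose and 4 fell in M2 with MCHP. FABP4, a fatty acid binding protein that is also a target of PPAR gamma, went from 8.30 ± 4.46 to 91.8 ± 13.8 CPM (3.48, adjusted p = 2.2e-08). CCL22 rose from 742 ± 97.7 to 1214 ± 53.6 CPM (0.71, adjusted p = 5.6e-05). The lectin gene CD209 fell from 161 ± 11.1 to 107 ± 6.12 CPM (-0.59, adjusted p = 9.2e-05), and the chemokine CCL13 (-1.32), CLEC10A (-0.99) and CISH fell as well. Of the STAT4 signalling genes, IL23A fell (-0.46, adjusted p = 0.011) and IL18R1 rose (0.29, adjusted p = 0.014). The T and NK cell marker sum was 37.2 to 47.6 CPM in M2 DMSO and 26.6 to 34.1 CPM in M2 MCHP, with TRAC called lower (-0.68, adjusted p = 0.0025) and CD3D and CD3E at 0 to 2 counts a group. Its part in these results was not tested. In M1 cells no target of STAT2, STAT3, STAT5 or STAT6 and no STAT4 signalling gene was called. With the M1 libraries alone, 5 of 23 STAT2 targets were called higher under MCHP, the list median being 0.10. In that fit 1 of 18 STAT3 targets was higher and 2 lower, and 1 of 12 STAT6 targets was higher and 1 lower. Over all genes that fit called 295, against 13 in the full fit.

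The M2 calls of IL6R, IL7R, IL10RA, FOSL2, FABP4, CCL22, CD209 and CCL13 held in all 19 alternatives. That of BCL6 was lost in 12. Those of CSF2RB, NCOA1, CISH, MCL1, CLEC10A and XAF1 were each lost in 5, and all of these in the fits without M2 MCHP replicate 1 and without replicate 3. VEGFA and IL18R1 lost theirs in 3 and IFNGR1 in 2, among them the fit without M2 MCHP replicate 3 for VEGFA and IFNGR1 and without replicate 1 for IL18R1. Leaving out M2 DMSO replicate 2 or 3 ended the calls of CSF2RB, NCOA1, CISH, MCL1, CLEC10A, VEGFA, IL18R1 and BCL6 as well, in at least 1 of the 2 fits. IL23A and IFIT2 lost theirs in the fit of the M2 libraries alone.

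**Figure D5:**
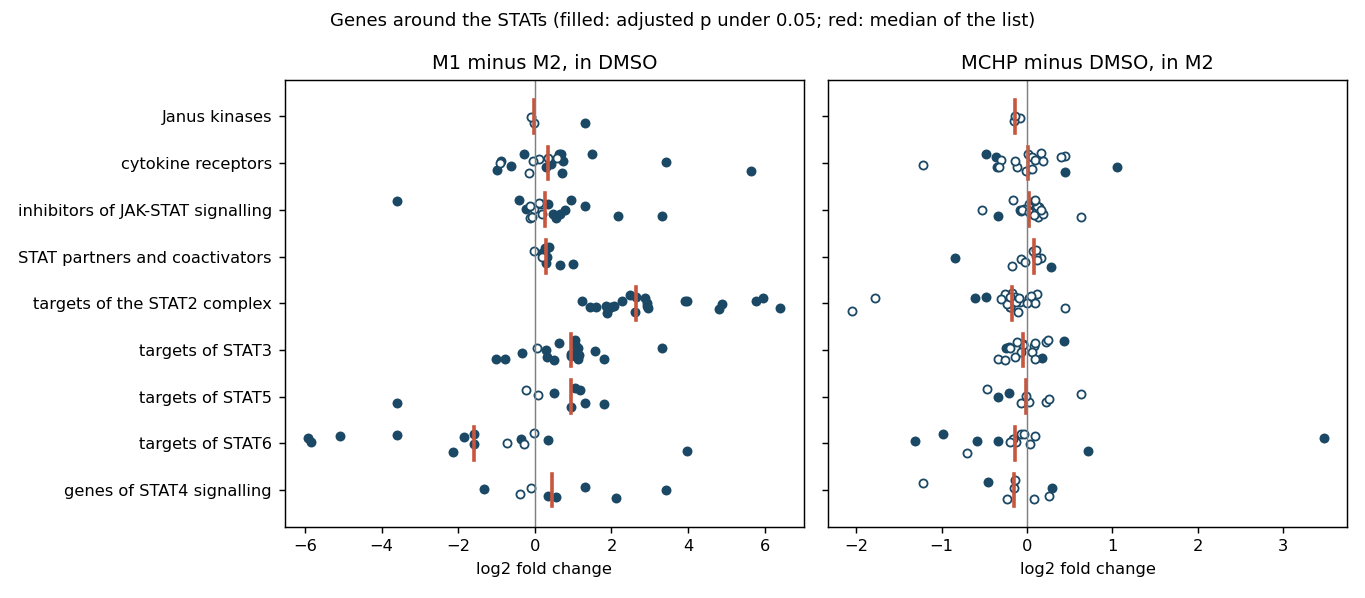
Log2 differences of the tested genes of the 9 signalling lists, in DMSO between M1 and M2 (left) and in M2 between MCHP and DMSO (right). Each point is a gene, filled where the adjusted p is under 0.05, and the red bar is the median of the list. STAT2 targets all lie right of 0 in the left panel, with a median of 2.65, and around a median of -0.17 in the right one.

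The STAT genes lie in 3 places of the genome (hg38, as given in the deposited table). STAT5B (ENSG00000173757, chromosome 17, 42199168 to 42276707, minus strand), STAT5A (ENSG00000126561, 42287547 to 42311943, plus strand) and STAT3 (ENSG00000168610, 42313324 to 42388568, minus strand) are consecutive among the tested genes. STAT5A is 10839 bases from STAT5B and 1380 bases from STAT3. In this row of 3, the differences between M1 and M2 in DMSO were -0.10, 0.44 and 1.62. Of the next tested genes outward, GHDC, beside STAT5B, was at -0.08 (not called) and CAVIN1, beside STAT3, at -1.77. STAT2 (ENSG00000170581, chromosome 12, 56341597 to 56360155, minus strand) lies 1186 bases from IL23A, which was also higher in M1 (0.55) and lower with MCHP in M2 (-0.46). TIMELESS, 56217 bases away on the other side, was higher in M1 (0.60) but not called with MCHP in M2 (0.15). STAT6 (ENSG00000166888, chromosome 12, 57095408 to 57132139, minus strand) shares 59 exonic bases with LRP1 and 69 with NAB2, both on the plus strand. The strand setting of the counting is not given in the sources used here, so reads in those bases could not be assigned. LRP1 (-0.08) and NAB2 (0.19) were not called between M1 and M2 in DMSO, nor with MCHP in M2 (0.11 and -0.04). Of the nearest tested genes beyond, NEMP1 was higher in M1 in DMSO (2.09) and lower with MCHP in M2 (-0.38). NXPH4 was lower in M1 in DMSO (-1.37) and not called with MCHP in M2 (-0.004). STAT4 (ENSG00000138378) is on chromosome 2, 191029576 to 191151596, minus strand.

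The genes whose pattern was most like that of each STAT gene were ranked by Pearson correlation of log2 CPM over the 12 libraries, among 9611 protein-coding genes with a mean of at least 5 CPM. These libraries share their polarization state, so the gap between M1 and M2 enters every value. For STAT2 they were TRIM22 (r = 0.999), IFITM1 and C1S. Within the 6 M2 libraries alone their correlations with STAT2 were 0.964, 0.975 and 0.928, and within the 6 M1 libraries -0.118, -0.735 and 0.140. For STAT3 they were HELZ2 (0.999), PDP1 and PTAFR, for STAT6 they included ALOX5 (0.989) and CHIT1, and for STAT5A they were ORAI1 (0.985), SH2D3C and CTDSP1. STAT5B, which lacked the gap, had lower values: STK36 (0.848), TIAL1 (0.823) and CALHM2 (0.798). STK36 kept 0.883 within M1 and 0.802 within M2. Among the STAT genes themselves, STAT2 and STAT3 had 0.987 over the 12 libraries but -0.574 within M1 and -0.573 within M2, and STAT2 and STAT6 had 0.968, 0.622 and 0.725.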

How the data were processed

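The authors deposited 1 table of read counts for each gene and library, not normalized, beside gene lengths (per the file headers). Of the tools listed in the submitters' processing notes, whose order and roles are not given, featureCounts 1.5.0-p3 counts reads, HISAT2 2.0.5 aligns them, fastp trims them, StringTie 1.3.3b assembles transcripts and DESeq2 1.20.0 tests genes. The genome build named there is hg38. The annotation release and strand setting are not given in the sources used here, but the table's identifiers and spans for the STAT genes matched GENCODE 29.

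The counts were fitted with edgeR 4.0.16 (R 4.3.3): filterByExpr over the 4 groups (15252 genes, at least 99.8% of counts kept), TMM scaling, 1 mean per group over all 12 libraries (8 residual degrees of freedom), and the two-sided quasi-likelihood test with Benjamini-Hochberg adjustment over all genes and a threshold of 0.05. Of the 58907 genes, 26650 had no count and 172 were unannotated models. Standard errors come from the F statistic. The steps were tested on simulated data.

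Named genes were the STAT genes, a fixed set of 19 receptors, kinases, inhibitors and IRF9, in each list and comparison the called members of smallest p (up to 4), the 3 most alike genes, and overlapping or neighbouring genes. CSF2RB, CLEC10A in M2, CD68, MRC1, CD3D, CD3E, FCRLA and CSF3R were named after their values were seen. There were 16 lists of 195 genes (markers included), of which 1 had no match. Members and lists were chosen with earlier results of these data known. Some genes that the rule would name are not reported here.

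Alternatives were DESeq2 size factors, library size alone, no filter, a replicate block, DESeq2 1.42.0, limma-voom (limma 3.58.1), only the groups compared, and each library left out in turn. Promoter sequences are RefSeq's, and all 6 genes matched.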

Additional observations from a re-analysis of the deposited data

Results flagged for a closer look

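No STAT gene responded to MCHP in a way that differed between M1 and M2 cells past the threshold, but 2 of the target genes did. They were 1 of 23 tested targets of STAT2 and 1 of 14 of STAT6. Of 18 tested targets of STAT3 and 9 of STAT5 none was called. Over all genes 0.164% were called in this comparison. The response of CD209, on the STAT6 list, was higher in M1 than in M2 by 0.77 on the log2 scale (adjusted p = 0.0030, edgeR's quasi-likelihood test). It was 0.18 in M1, which was not called (adjusted p = 0.88), and -0.59 in M2, and the difference stayed under the threshold in all 18 alternatives. The response of IFIT2, on the list of STAT2 targets, was higher in M1 by 0.71 (adjusted p = 0.022), with 0.11 in M1 and -0.61 in M2. That call was lost in 8 of 18 alternatives, each leaving out 1 library, with an adjusted p of up to 0.13.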

How the results depend on the processing

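Between M1 and M2 cells, the 4 STAT genes called in DMSO and under MCHP kept their direction and their call in all 19 alternatives. With MCHP in M2, 2 STAT genes were called. Leaving out 1 library at a time gave 0 to 3. A fit of the M2 libraries alone gave 0, with log2 changes close to those of the full fit. That fit has fewer samples to estimate the spread, while the full fit also takes it from the M1 libraries. The chi-square per degree of freedom between replicates was 2.24 to 2.81 in M1 and 2.26 to 21.5 in M2. The part of this in the lost calls was not tested. In the difference of the responses 0 STAT genes were called, and leaving out 1 library at a time gave 0 to 1, the 1 being STAT2 without M2 DMSO replicate 1.

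Counts over all genes moved more. In M1 the 13 genes called became 76 without a filter, 5 with the replicate block, 50 by DESeq2, 295 with the M1 libraries alone and 1 to 159 with 1 library left out. In M2 the 779 became 183 with the M2 libraries alone and 383 to 1747 with 1 library left out. In the difference the 25 became 170 without a filter, 96 by DESeq2 and 5 to 385 with 1 library left out. The highest of each range came without M2 DMSO replicate 1.

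Same-numbered libraries of different groups did not deviate together over all tested genes (correlations of -0.05 to 0.04 in 18 pairs). The labels link them by number only, and a batch shared in part of the genes was not tested. With the replicate block the STAT genes called were 4 between M1 and M2 in DMSO, 4 under MCHP, 0 in M1, 2 in M2 and 0 in the difference. The order of the per-length levels was the same in TPM, which uses the same gene lengths. By Spearman correlation none of the 3 most alike genes was shared for STAT2, STAT3, STAT5A and STAT6, and 3 of 3 were for STAT5B. Counts of list members without M2 DMSO replicate 1, with library size alone and with the compared groups alone were alternatives chosen after seeing the data. Depth limits STAT4, with 0 to 5 counts a library.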

Other observations

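IFI44L and IFI44, both on the list of STAT2 targets, were named here after their values were seen. In M2 DMSO they had 19 and 12 counts over 3 libraries, and in M2 MCHP 4 and 3. The log2 changes of -2.06 (adjusted p = 0.053, edgeR's quasi-likelihood test) and -1.79 (adjusted p = 0.18) were the most negative on that list and were not called. In M1 cells, where the 3 libraries of a group held 1456 counts of IFI44L in DMSO and 1693 under MCHP, its change was 0.20 (adjusted p = 0.95).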
